A study of Mus musculus with 12 samples.

Results

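The regulators of alternative splicing were followed through the exit from naive pluripotency in Pcbp1 knockout (KO) and control mouse embryonic stem cells. The set holds 38 genes, chosen by name from the 55487 genes of the count table: 19 genes of heterogeneous nuclear ribonucleoproteins (hnRNPs) other than Hnrnpk, 10 genes of serine/arginine-rich (SR) proteins, and 9 regulators known for tissue-restricted splicing programmes (Ptbp1, Ptbp2, Ptbp3, Rbfox2, Mbnl1, Mbnl2, Celf1, Esrp1 and Esrp2). Each symbol matched 1 row of the table. PCBP1, the product of the targeted gene, is itself a poly(C)-binding hnRNP.

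As background, an exon is kept or skipped according to the proteins that sit on the nascent transcript. SR proteins bind mostly within exons and help the spliceosome to recognise them, while many hnRNPs, PTBP1 among them, mask splice sites or loop exons out. Several of these proteins control their own messages by steering them into isoforms with a premature stop codon, which nonsense-mediated decay (NMD) removes. In early development ESRP1 and ESRP2 drive epithelial isoforms, MBNL proteins oppose the splicing pattern of embryonic stem cells, and PTBP1 keeps neuronal exons silent.

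Polyadenylated RNA came from the mouse embryonic stem cell line E14 Tg2a in 4 groups of 3 libraries, from 3 independent KO and 3 independent control clones, so that within a genotype the naive and EpiLC libraries with the same number are not independent of each other. EpiLC KO and EpiLC WT were Pcbp1 knockout and control clones kept for 48 h on fibronectin with bFGF, activin A and KOSR, a serum replacement, which turns them into epiblast-like cells (EpiLCs), a culture model of the epiblast just after implantation. Naive KO and naive WT were the knockout and control clones in serum-free 2i and LIF medium, with inhibitors of MEK and GSK3β. The controls are labelled wild type (WT) on the samples and Scr in the series text, and the kind of Pcbp1 lesion is not given in the sources used here.

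The libraries held 27146744 to 42204511 counts. Levels are given as CPM (counts scaled to the library total, with TMM factors). Pcbp1, the targeted gene, had 250.3, 302 and 265 CPM in EpiLC KO libraries against 692, 512 and 592 CPM in EpiLC WT libraries. It had 295, 303 and 303 CPM in naive KO libraries against 475, 418 and 474 CPM in naive WT libraries. Its transcript was thus lower in both conditions (adjusted p = 0.000137 in EpiLCs and 0.00599 in naive cells, edgeR) and still counted in every KO library. The 5 pluripotency markers summed to 1330 to 2180 CPM in all libraries. The 6 EpiLC markers summed to 2050 to 3670 CPM in EpiLC libraries against 81.8 to 152 CPM in naive libraries, and the 7 naive markers to 138 to 617 CPM in EpiLC libraries against 3560 to 3870 CPM in naive libraries. The EpiLC WT replicate 2 stood apart: it held the 617 CPM of naive markers, against 162 and 173 CPM in the other EpiLC WT libraries, and the results it decides are given with and without it. All 6 endoderm markers passed the test as higher in KO among EpiLCs, with sums of 24.8 to 33.4 CPM in EpiLC KO libraries against 2.43 to 9.34 CPM in EpiLC WT libraries. The 6 fibroblast or feeder markers summed to 20.3 to 26.5 CPM in EpiLC KO libraries against 6.50 to 12.5 CPM in EpiLC WT libraries, where 1 of the 4 tested passed, and the means of Twist2 and Col3a1 were under 1 CPM in every group. The 4 mesoderm and streak markers summed to 12.5 to 18.7 CPM in EpiLC KO libraries against 5.49 to 9.97 CPM in EpiLC WT libraries, where 1 of the 3 tested passed as higher. The part of these 3 marker lists in the results below was not tested. In bulk RNA, fewer cells of a type and less RNA per cell cannot be told apart.

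All 38 members passed the filter on low counts. Parts of 8 members match other genes at 98% identity or more. The matched share of the transcript is largest for Hnrnpf (59.5%), Srsf5 (51.7%), Hnrnpa1 (50.3%) and Srsf3 (49.5%). Reads from these parts may be assigned to the copies or left uncounted, since the counting command names no multi-mapping option. The copies of these 4 hold at most 0.963% of the member's counts, a share that says nothing of reads left uncounted. The levels of these 4 may therefore be too low. Exons of Srsf4 share 43.0% of their bases with Gm12992, and the counting command names no strand option, so these cannot be separated. Compared per exon length, as RPKM (CPM per kilobase of exon), the level of Hnrnpa1, a major packaging protein of nascent RNA, was the highest in each group, with means of 468 RPKM in EpiLC KO, 470 RPKM in EpiLC WT, 377 RPKM in naive KO and 382 RPKM in naive WT. Hnrnpa2b1, Hnrnpab, Hnrnpc and Hnrnpa3 held the next places in every group, with mean levels of 147 to 251 RPKM, in an order that differed between the groups. The lowest levels were those of Mbnl1, with group means of 0.272 to 0.574 RPKM, and, in naive cells, of Esrp1, with 0.0843 RPKM in KO and 0.142 RPKM in WT. Members took 1.86%, 1.64% and 1.68% of the counts in the EpiLC KO libraries 1, 2 and 3, against 1.51%, 1.47% and 1.50% in the EpiLC WT libraries. These ranges did not overlap. In naive cells they did, with 1.49%, 1.42% and 1.37% in KO libraries and 1.45%, 1.38% and 1.46% in WT libraries.

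The first comparison asked whether these regulators differ between Pcbp1 KO and WT clones in EpiLCs. Hnrnph1, Hnrnph2, Hnrnpll and Ptbp2 rose in EpiLC KO relative to EpiLC WT, by 1.36-fold to 1.62-fold, and edgeR called no member as lower. These 4 of 38 members passed the threshold of 0.05 on the Benjamini-Hochberg adjusted p of edgeR's quasi-likelihood test, a share of 10.5%, where 15.1% of all 18134 genes tested passed it (7.22% as higher). The share of members called is therefore no larger than the share of all genes. Log2 fold changes were above 0 for 29 members and below 0 for 9, with a median of 0.15 against 0.00 over all genes, and ran from -0.97 for Esrp2 to 0.85 for Mbnl2. Groups did not overlap for 13 members, 9 higher and 4 lower in KO, where 33.3% of all genes had groups that did not overlap (16.1% higher and 17.2% lower). Of the hnRNP genes 3 of 19 rose, of the SR genes 0 of 10, and of the tissue regulators 1 of 9. The number called was 2 without EpiLC KO replicate 1, without EpiLC KO replicate 2 or without EpiLC WT replicate 3, and 8 without EpiLC WT replicate 2. The number over all genes also moved, from 1375 to 3117 with 1 library left out. The summed levels of the endoderm, fibroblast and mesoderm lists given above were also higher in the EpiLC KO libraries. The mesoderm sum was mostly Eomes, with means of 15.7 CPM in EpiLC KO and 7.76 CPM in EpiLC WT. Of the fibroblast markers above 1 CPM, Col1a2 and Pdgfra were higher in EpiLC KO and Thy1 was lower. The summed neuroectoderm markers had medians of 23.9 CPM in EpiLC KO and 31.9 CPM in EpiLC WT, with ranges that overlapped. Among these, Tubb3 was lower in EpiLC KO, while the other means were higher.

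**Figure D1:**
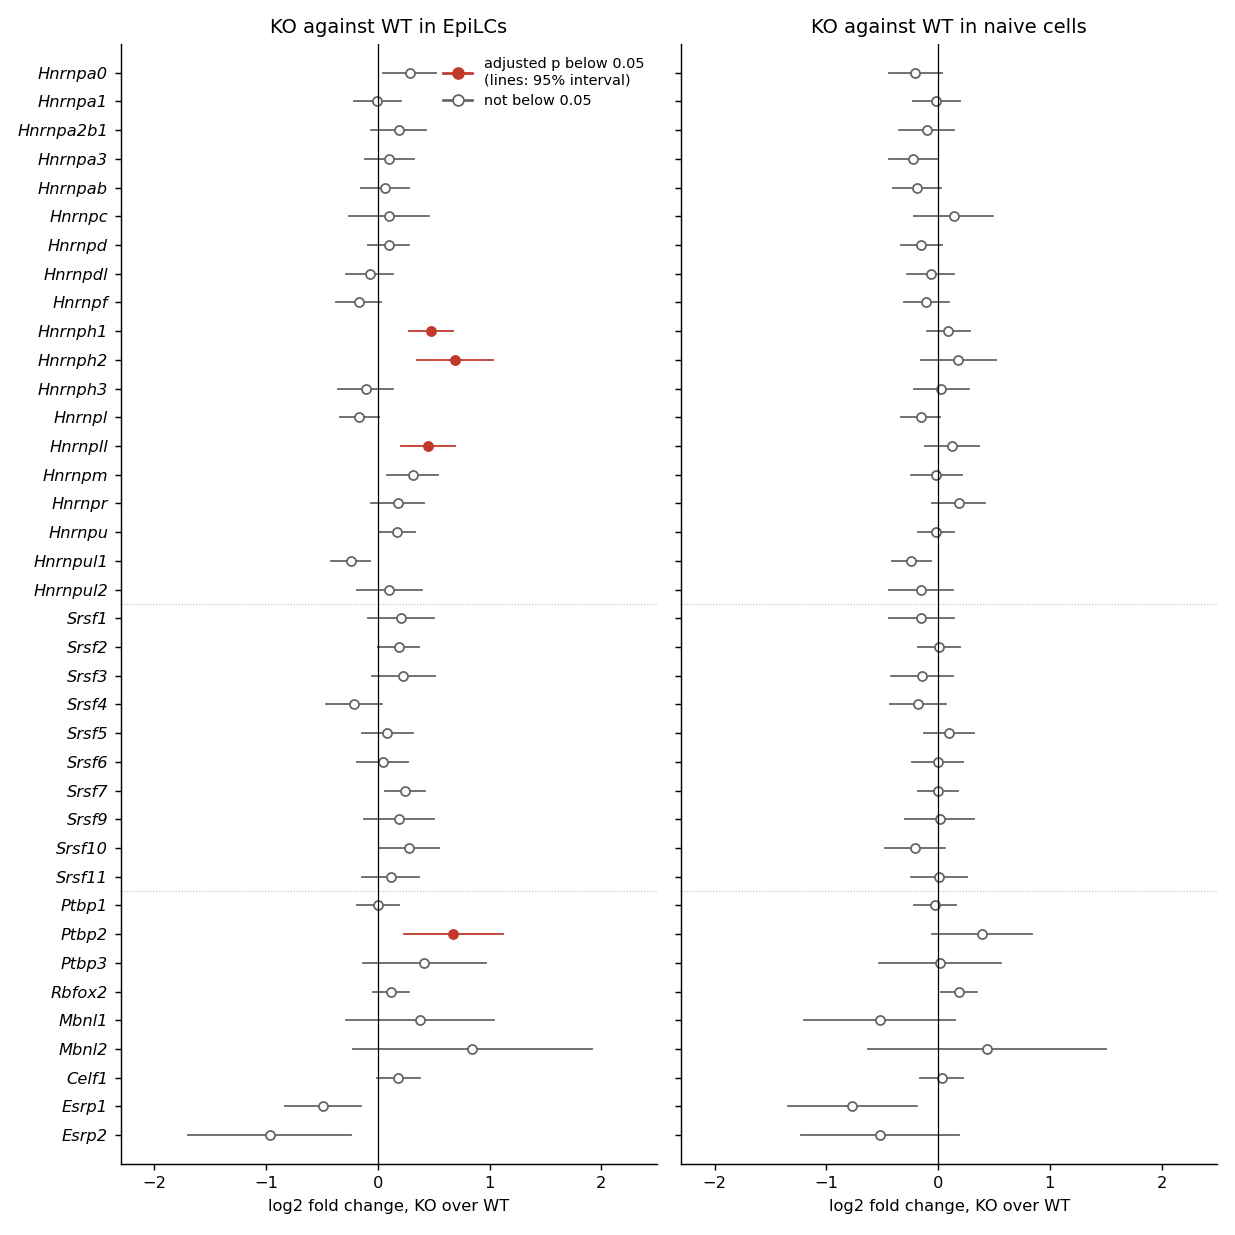
Log2 fold change of KO over WT (x axis) in EpiLCs (left) and naive cells (right) for each of the 38 members (rows, with hnRNP, SR and tissue regulators separated by dotted lines). Points are estimates from edgeR, lines are 95% intervals, and filled red points passed an adjusted p of 0.05. The 4 filled points all lie in the EpiLC panel to the right of 0.

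Hnrnph1 and Hnrnph2 encode close paralogs that bind runs of G in exons and introns. Hnrnph1 (chromosome 11, 50376990 to 50386528, plus strand, GRCm38) had 685, 602 and 581 CPM in EpiLC KO libraries, 440.3, 444 and 457 CPM in EpiLC WT libraries, 503, 429 and 486 CPM in naive KO libraries, and 420.2, 468 and 442 CPM in naive WT libraries. All 3 EpiLC KO libraries lay above every other library. Its log2 fold change in EpiLCs was 0.48 ± 0.09 (SE; adjusted p = 0.00464, edgeR), and in naive cells 0.09 ± 0.09 (adjusted p = 0.579, edgeR). It was the 1 member whose call in EpiLCs held under every alternative setting. A stretch of 171 bases of its transcript also matches Setd1b at 98% identity or more, and the counts of Setd1b equal 10.9% of those of Hnrnph1.

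Hnrnph2 (X chromosome, 134601179 to 134607060, plus strand) had 107, 83.0 and 87.9 CPM in EpiLC KO libraries, 49.4, 69.4 and 53.4 CPM in EpiLC WT libraries, 87.9, 79.6 and 71.1 CPM in naive KO libraries, and 77.8, 58.6 and 73.9 CPM in naive WT libraries. The EpiLC KO libraries were the higher ones without overlap, and the naive groups overlapped. The log2 fold change was 0.69 ± 0.16 (SE) in EpiLCs with an adjusted p of 0.0118 (edgeR). Without EpiLC KO replicate 1 the adjusted p was 0.0575. In naive cells the difference was 0.18 ± 0.15 (SE; adjusted p = 0.523, edgeR).

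Hnrnph3, the third member of the H family, did not pass the test in EpiLCs. It had 74.7, 66.8 and 73.0 CPM in EpiLC KO libraries, against 84.6, 72.8 and 74.1 CPM in EpiLC WT libraries, and the groups overlapped (log2 fold change -0.11, 95% interval -0.36 to 0.14, adjusted p = 0.562, edgeR). Per length, the ratio of Hnrnph3 to Hnrnph1 was 0.202 to 0.233 in EpiLC KO libraries against 0.300 to 0.356 in EpiLC WT libraries, whereas in naive libraries it was 0.181 to 0.212 in KO and 0.183 to 0.223 in WT.

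Hnrnpll, known for the control of CD45 exon skipping in activated lymphocytes, lies on chromosome 17 (80029487 to 80062334, minus strand). It had 134, 158 and 131 CPM in EpiLC KO libraries, 112, 94.1 and 105 CPM in EpiLC WT libraries, 92.6, 114 and 92.1 CPM in naive KO libraries, and 89.7, 94.2 and 90.5 CPM in naive WT libraries. EpiLC KO replicate 2 was the highest library and naive KO replicate 2 the highest of the naive ones. The log2 fold change in EpiLCs was 0.45 ± 0.11 (SE; adjusted p = 0.019, edgeR), with adjusted p-values of 0.075 without EpiLC KO replicate 2 and 0.0534 without EpiLC WT replicate 3. In naive cells the log2 fold change was 0.12 ± 0.11 (SE), and it was -0.01 without naive KO replicate 2. Its paralog Hnrnpl, broadly expressed and higher per exon length, had 702, 756 and 732 CPM in EpiLC KO libraries against 851, 804 and 797 CPM in EpiLC WT libraries. These groups did not overlap, but the log2 fold change of -0.16 ± 0.08 (SE) had an adjusted p of 0.184 (edgeR). The RPKM ratio of Hnrnpll to Hnrnpl was 0.0913 to 0.106 in EpiLC KO libraries and 0.0597 to 0.0669 in EpiLC WT libraries.

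Ptbp2 encodes the neuronal polypyrimidine tract-binding protein, and its message is a textbook target of its paralog PTBP1: PTBP1 makes the spliceosome skip exon 10, the reading frame shifts, and the message is degraded. That exon is shown because it is the point at which these 2 members meet. It spans chr3:119724612-119724645 (GRCm38, minus strand) and has 34 bases, which is not a multiple of 3. Below it is in capitals between 20 bases of each neighbouring exon, read from the GENCODE transcript, followed by the junction that skips it.
Ptbp2 with exon 10: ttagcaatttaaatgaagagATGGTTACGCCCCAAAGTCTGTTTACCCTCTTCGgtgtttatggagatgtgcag
Ptbp2 without exon 10: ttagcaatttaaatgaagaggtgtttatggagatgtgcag
In the annotation 3 transcripts of the protein-coding class hold this exon, and both transcripts of the NMD class have the skipping junction. The counts are per gene, so they do not tell the 2 forms apart.

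At the level of the gene, Ptbp2 (chromosome 3, 119718742 to 119784466, minus strand) had 101, 75.2 and 74.8 CPM in EpiLC KO libraries, 44.2, 53.1 and 59.8 CPM in EpiLC WT libraries, 66.0, 59.0 and 40.4 CPM in naive KO libraries, and 31.9, 46.5 and 47.5 CPM in naive WT libraries. The groups did not overlap in EpiLCs and overlapped in naive cells, where naive KO replicate 3 fell between the WT libraries. Its log2 fold change was 0.68 ± 0.21 (SE; adjusted p = 0.0439, edgeR) in EpiLCs and 0.39 ± 0.21 (SE; adjusted p = 0.271, edgeR) in naive cells. The call in EpiLCs was lost without any 1 of the 6 EpiLC libraries (adjusted p from 0.0594 to 0.174), without naive WT replicate 3 (0.0503), and with the replicate block (0.0693). Ptbp1, its repressor, had 675, 727 and 735 CPM in EpiLC KO libraries against 773, 675 and 687 CPM in EpiLC WT libraries, groups that overlapped (log2 fold change 0.00, 95% interval -0.19 to 0.19). Some 20.7% of the exon bases of Ptbp1 also lie in exons of other genes, among them Plppr3. The RPKM ratio of Ptbp2 to Ptbp1 was 0.0526 to 0.0771 in EpiLC KO libraries against 0.0295 to 0.0449 in EpiLC WT libraries.

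**Figure D2:**
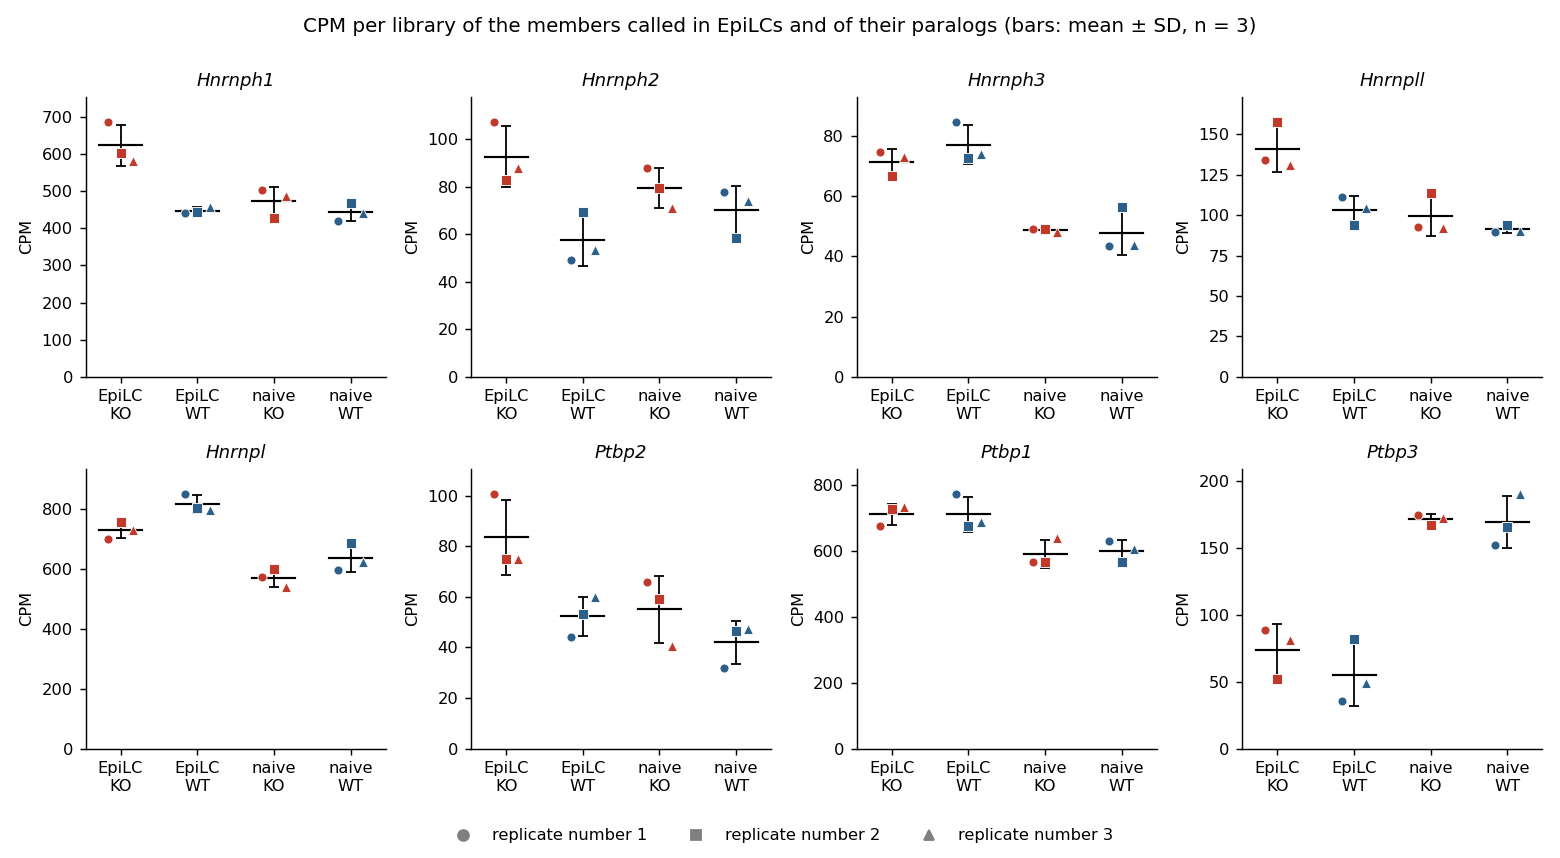
CPM (y axis, from 0) in each of the 12 libraries for Hnrnph1, Hnrnph2, Hnrnpll and Ptbp2 and for their paralogs, by group (x axis), with KO in red and WT in blue. Marker shape gives the replicate number, and bars show mean and SD of 3 libraries. For the 4 called genes the red EpiLC points lie above all blue EpiLC points, whereas Hnrnph3, Ptbp1 and Ptbp3 overlap.

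The promoters of Hnrnph2 and Ptbp2, which both rose, are shown to compare what lies at their RefSeq start sites (GRCm38.p6, 250 bases before to 50 after the start). The Hnrnph2 window spans the first base of the counted gene (134601179), whereas the Ptbp2 window lies wholly inside the counted gene (119718742 to 119784466). The 2 windows are therefore not at like positions of the counted genes. Capitals mark CCAAT, the core of the CCAAT box, which reads ATTGG on the other strand, and the E-box CACGTG, and both strands were searched.
Hnrnph2, chrX:134600929-134601228, plus strand: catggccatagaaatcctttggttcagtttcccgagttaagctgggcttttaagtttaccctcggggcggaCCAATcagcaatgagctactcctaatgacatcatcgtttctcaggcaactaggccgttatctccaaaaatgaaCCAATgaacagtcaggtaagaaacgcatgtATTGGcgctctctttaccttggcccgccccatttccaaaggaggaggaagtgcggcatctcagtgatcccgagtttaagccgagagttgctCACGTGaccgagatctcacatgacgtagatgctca
Ptbp2, chr3:119783339-119783638, minus strand: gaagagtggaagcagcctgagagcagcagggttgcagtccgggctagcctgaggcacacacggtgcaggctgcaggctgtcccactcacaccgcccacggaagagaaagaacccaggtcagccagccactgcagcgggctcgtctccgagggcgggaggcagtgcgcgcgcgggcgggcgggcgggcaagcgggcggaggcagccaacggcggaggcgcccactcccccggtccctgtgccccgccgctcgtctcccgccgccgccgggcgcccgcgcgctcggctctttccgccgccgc
The Hnrnph2 window holds 3 CCAAT and 1 CACGTG and is 49.0% G and C, while the Ptbp2 window holds neither and is 74.7% G and C. Of 32851 RefSeq promoter windows, 37.4% hold CCAAT and 7.15% hold CACGTG. Of the 45 windows of the 32 members that matched, 51.1% hold CCAAT and 15.6% hold CACGTG. These 2 windows thus share neither of the 2 motifs searched, and their base composition differed. A part of the promoters in the change in EpiLCs was not tested.

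Several members came close to the threshold in EpiLCs and depended on the setting. Srsf7, whose protein also promotes export of spliced RNA, had 467, 459 and 446 CPM in EpiLC KO libraries against 397, 382 and 378 CPM in EpiLC WT libraries (log2 fold change 0.25, adjusted p = 0.0651, edgeR). Hnrnpm, a repressor and activator of exons in epithelial and mesenchymal cells, had 653, 549 and 568 CPM in EpiLC KO libraries against 528, 465 and 433 CPM in EpiLC WT libraries (log2 fold change 0.31, adjusted p = 0.0659, edgeR). For both genes every EpiLC KO library was above every EpiLC WT library. DESeq2 called 9 members in EpiLCs: the 4 above, Srsf7 and Hnrnpm as higher, and Esrp1, Esrp2 and Hnrnpul1 as lower in KO. It called 3547 of all 18134 genes. Without EpiLC WT replicate 2, edgeR called 8 members: it lost Ptbp2 and added Ptbp3 (log2 fold change 0.81) and Mbnl2 (1.55) as higher and Esrp1 (-0.61), Esrp2 (-1.23) and Hnrnpul1 (-0.295) as lower in KO. Over all genes, the edgeR fits that left out 1 library called 1375 to 3117.

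In naive cells 0 of 38 members passed between KO and WT with edgeR, where 9.23% of all genes did. Esrp1 passed as lower in naive KO without a filter (adjusted p = 0.0407) and without naive WT replicate 1 (log2 fold change -1.02, adjusted p = 0.0282), against -0.77 with all libraries (adjusted p = 0.0962). Unadjusted p-values were under 0.05 for 4 members, Hnrnpul1, Esrp1, Rbfox2 and Hnrnpa3, where 23.6% of all genes had them. DESeq2 called 2516 of the 18134 genes and 1 member, Hnrnpul1. That gene, a relative of the nuclear scaffold protein HNRNPU, had 334, 321 and 304 CPM in naive KO libraries against 358, 384 and 389 CPM in naive WT libraries, and 251, 235 and 228 CPM in EpiLC KO libraries against 294, 260.3 and 289 CPM in EpiLC WT libraries. Every KO library was below every WT library of its condition. The log2 fold change was -0.24 ± 0.08 (SE) in both conditions, with adjusted p-values of 0.0884 in naive cells and 0.0641 in EpiLCs (edgeR). Log2 fold changes of the other members in naive cells ran from -0.77 for Esrp1 to 0.44 for Mbnl2, with a median over all members of -0.02. Groups did not overlap for 9 members, 1 higher and 8 lower in KO, where 30.4% of all genes had groups that did not overlap (15.1% higher and 15.3% lower).

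The next comparison set EpiLC against naive cells within each genotype. In KO clones 22 of 38 members changed between EpiLC and naive, 17 higher and 5 lower, where 55.2% of all genes did (27.1% higher and 28.1% lower). In WT clones 12 changed, 6 higher and 6 lower, where 52.7% of all genes did (26.4% higher and 26.3% lower). The members' shares were thus 57.9% in KO, near that of all genes, and 31.6% in WT, below it. A block by clone called more members, and more of all genes, in each genotype, as given in the closing section. The 11 members called in both genotypes all moved in the same direction, and they are 11 of the 22 in KO and 11 of the 12 in WT. Those higher in EpiLCs of both genotypes were Hnrnpa1, Hnrnpab, Hnrnph3, Hnrnpl, Ptbp1 and Esrp1, and those lower were Hnrnpr, Hnrnpul1, Rbfox2, Ptbp3 and Esrp2. Most called changes were under 2-fold, 18 of 22 in KO and 9 of 12 in WT.

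**Figure D3:**
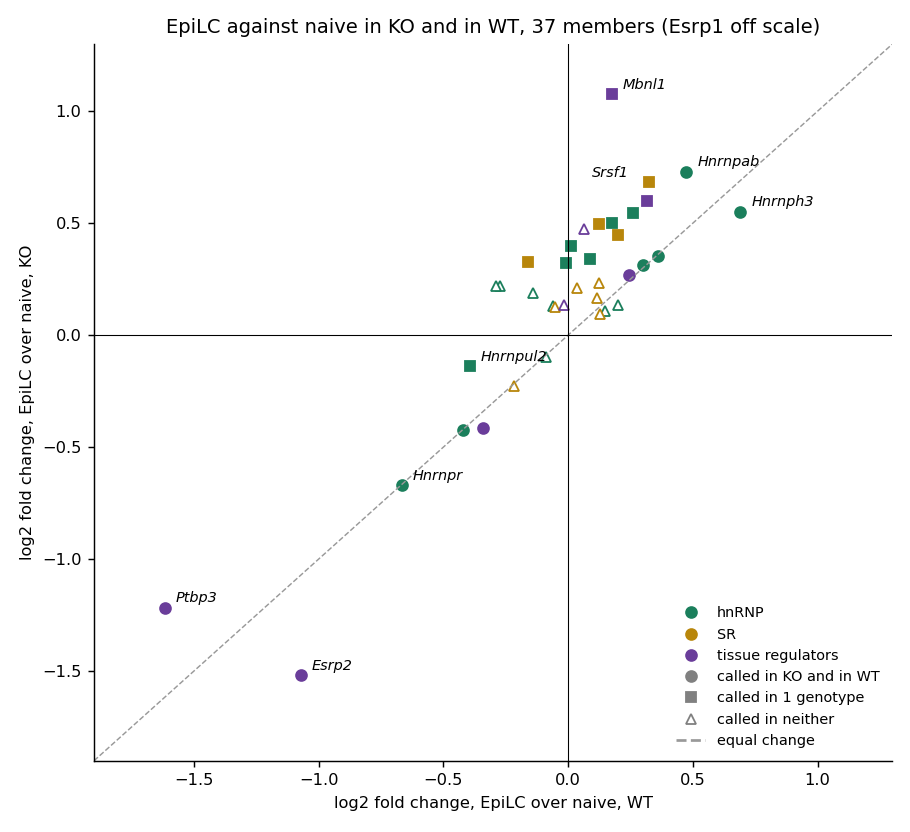
Log2 fold change of EpiLC over naive in KO clones (y axis) against that in WT clones (x axis) for 37 members, with Esrp1 off the scale at 7.73 in KO and 7.46 in WT. Colour gives the class of regulator and marker shape the calls. Ptbp3 and Esrp2 lie far below 0 in both genotypes, and Mbnl1 is the highest point on the KO axis.

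The largest change was that of Esrp1, the epithelial splicing regulator on chromosome 4 (11331933 to 11386783, minus strand). It had 104, 108 and 129 CPM in EpiLC KO libraries and 176, 132 and 169.9 CPM in EpiLC WT libraries, against 0.565, 0.446 and 0.584 CPM in naive KO libraries and 0.577, 1.03 and 1.09 CPM in naive WT libraries, where its raw counts were 16 to 41. No naive library came near an EpiLC library. The log2 fold change of EpiLC over naive was 7.73 ± 0.23 (SE) in KO (adjusted p = 6.16e-10, edgeR) and 7.46 ± 0.22 (SE) in WT (adjusted p = 5.95e-10, edgeR). Every EpiLC KO library was below every EpiLC WT library (log2 fold change -0.49 ± 0.16, adjusted p = 0.0536, edgeR). It was called as lower in EpiLC KO with DESeq2 (adjusted p = 0.0331) and, with edgeR, without a filter (adjusted p = 0.0138), with the replicate block (0.0484), without naive WT replicate 1 (0.0323) and without EpiLC WT replicate 2 (0.0175), and its highest adjusted p over all alternatives was 0.178.

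Its paralog Esrp2 ran the other way over the transition. Esrp2 (chromosome 8, 106130319 to 106136974, minus strand) had 4.78, 3.07 and 4.79 CPM in EpiLC KO libraries and 7.63, 4.89 and 12.2 CPM in EpiLC WT libraries, against 12.1, 7.55 and 16.6 CPM in naive KO libraries and 17.1, 16.4 and 18.4 CPM in naive WT libraries. It fell in EpiLCs by 1.52 ± 0.34 (SE) on the log2 scale in KO (adjusted p = 0.00205, edgeR) and by 1.07 ± 0.33 in WT (adjusted p = 0.0159, edgeR, and 0.052 without EpiLC WT replicate 1). The RPKM ratio of Esrp2 to Esrp1 was 0.0414 to 0.0665 in EpiLC KO libraries and 0.0540 to 0.104 in EpiLC WT libraries, against 24.6 to 41.3 in naive KO libraries and 23.3 to 43.0 in naive WT libraries. The pair therefore exchanged places: Esrp2 was the more abundant in every naive library and Esrp1 in every EpiLC library. Between genotypes in EpiLCs, the log2 fold change of Esrp2 was -0.97 ± 0.34 (SE; adjusted p = 0.0721, edgeR), with no overlap of KO and WT libraries; its adjusted p was 0.0244 with the replicate block and 0.00773 without a filter. When 1 library was left out, this difference ranged from -1.23 without EpiLC WT replicate 2 (adjusted p = 0.0202) to -0.58 without EpiLC WT replicate 3 (adjusted p = 0.274).

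Ptbp3, the third polypyrimidine tract-binding paralog and best known from blood cells, lies on chromosome 4 (59471868 to 59549364, minus strand). It had 88.6, 51.8 and 80.7 CPM in EpiLC KO libraries and 35.2, 81.5 and 49.0 CPM in EpiLC WT libraries, against 175, 167 and 172 CPM in naive KO libraries and 152, 165 and 190.0 CPM in naive WT libraries. All 6 EpiLC libraries were below all 6 naive ones. It fell by 1.22 ± 0.26 (SE) on the log2 scale in KO (adjusted p = 0.00142, edgeR) and by 1.62 ± 0.26 in WT (adjusted p = 0.000217, edgeR). The high EpiLC WT value is that of replicate 2, the library with the most naive markers: with it the log2 fold change of KO over WT in EpiLCs was 0.42 (adjusted p = 0.298, edgeR), and without it 0.81 (adjusted p = 0.0202). Without EpiLC WT replicate 1 it was 0.17 (adjusted p = 0.686), and without EpiLC KO replicate 1 0.26 (adjusted p = 0.621). Ptbp1 moved in the opposite direction over the transition, with 0.27 ± 0.09 (SE) in KO and 0.24 ± 0.09 in WT (adjusted p = 0.0172 and 0.0294, edgeR). These calls of Ptbp1 were lost under 4 of 19 alternatives in KO (adjusted p up to 0.0608) and 6 of 19 in WT (up to 0.142). The RPKM ratio of Ptbp3 to Ptbp1 was 0.0452 to 0.0831 in EpiLC KO libraries and 0.0288 to 0.0765 in EpiLC WT libraries, against 0.170 to 0.195 in naive KO libraries and 0.153 to 0.199 in naive WT libraries.

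Mbnl1, one of the muscleblind proteins that favour the isoforms of differentiated cells, was low throughout. It had 11.5, 8.77 and 11.9 CPM in EpiLC KO libraries and 4.65, 12.7 and 7.58 CPM in EpiLC WT libraries, against 5.50, 5.66 and 4.12 CPM in naive KO libraries and 5.96, 7.27 and 8.71 CPM in naive WT libraries. The KO libraries separated by condition and the WT libraries did not. The log2 fold change of EpiLC over naive was 1.08 ± 0.31 (SE; adjusted p = 0.0104, edgeR) in KO and 0.18 ± 0.31 (adjusted p = 0.653, edgeR) in WT, and the interaction, the difference of these 2, was 0.90 ± 0.44 (SE; adjusted p = 0.432, edgeR). The WT change rests on EpiLC WT replicate 2: without it Mbnl1 changed sign in WT (-0.27, adjusted p = 0.422), its interaction was 1.34 (adjusted p = 0.107), and its log2 fold change of KO over WT in EpiLCs was 0.81 (adjusted p = 0.0568), against 0.38 with it (adjusted p = 0.445). Without EpiLC WT replicate 1 that last value was 0.08 (adjusted p = 0.88). Mbnl2, more abundant, had 70.2, 53.6 and 32.0 CPM in EpiLC KO libraries and 14.2, 51.5 and 21.2 CPM in EpiLC WT libraries, against 35.2, 58.4 and 18.5 CPM in naive KO libraries and 20.6, 40.5 and 21.9 CPM in naive WT libraries. With the filter on low counts and all libraries, edgeR called it in no contrast, the groups overlapped in every comparison, and in both conditions replicate 2 was the highest WT library and replicate 3 the lowest KO library. It was called as higher in EpiLC KO without a filter (log2 fold change 0.83, adjusted p = 0.0266) and without EpiLC WT replicate 2 (1.55, adjusted p = 0.0418), and the value was 0.51 (adjusted p = 0.568) without EpiLC WT replicate 1.

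**Figure D4:**
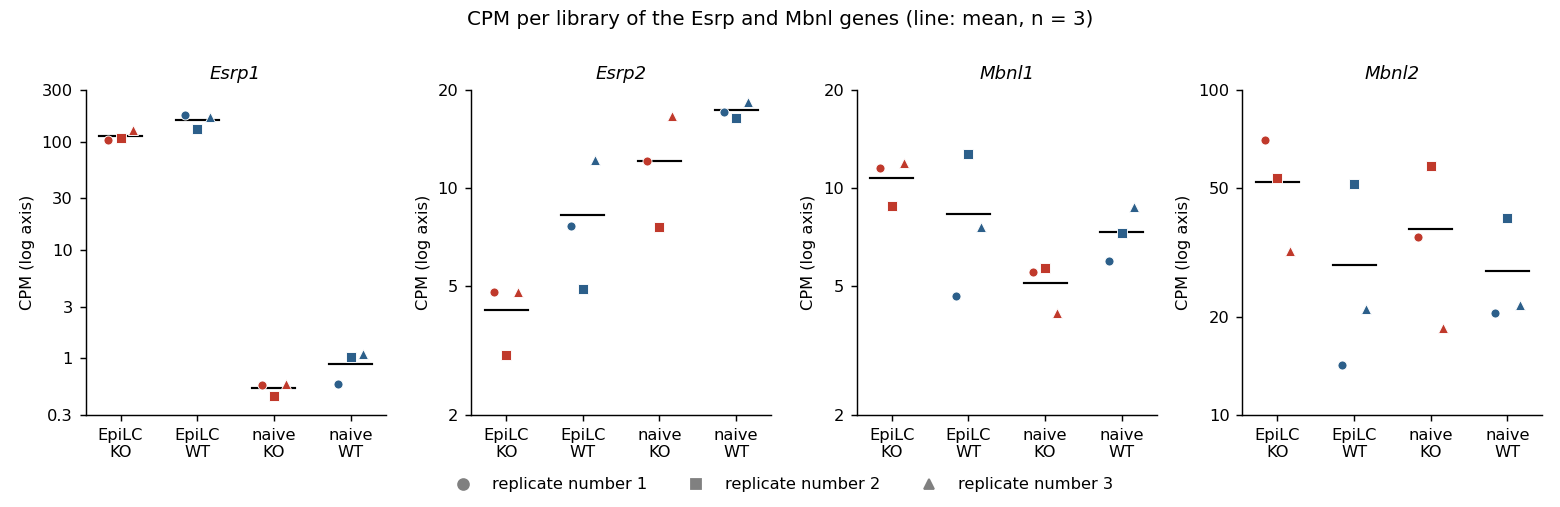
CPM (y axis, log scale) of Esrp1, Esrp2, Mbnl1 and Mbnl2 in each library, by group (x axis), with KO in red, WT in blue, marker shape for the replicate number and a line at the mean of 3. The Esrp1 points of EpiLC and naive groups lie far apart (213-fold in KO and 175-fold in WT), and the Mbnl2 points overlap between all groups.

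The other members called over the transition moved by less than 2-fold. In KO clones the hnRNP genes had 9 higher and 2 lower of 19, the SR genes 4 higher (Srsf1, Srsf3, Srsf7 and Srsf10) and 0 lower of 10, and the tissue regulators 4 higher and 3 lower of 9. In WT clones the hnRNP genes had 4 higher and 3 lower, the SR genes 0, and the tissue regulators 2 higher and 3 lower. Among those called in both genotypes, Hnrnpab, which binds AU-rich RNA, had 626, 738 and 669 CPM in EpiLC KO libraries and 746, 590.0 and 609 CPM in EpiLC WT libraries, against 414, 408 and 404 CPM in naive KO libraries and 490.5, 467 and 442 CPM in naive WT libraries; 29.1% of its exon bases also lie in exons of Phykpl on the other strand. Among hnRNP genes the largest fall was that of Hnrnpr, with log2 fold changes of -0.67 in KO and -0.66 in WT. Rbfox2, which binds UGCAUG beside regulated exons, fell by 0.41 in KO and 0.34 in WT on the log2 scale (adjusted p = 0.000442 and 0.00191, edgeR).

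Srsf1, the founding SR protein, illustrates the members called in KO alone. It had 856, 569 and 720.4 CPM in EpiLC KO libraries against 475, 453 and 408 CPM in naive KO libraries (log2 fold change 0.68, adjusted p = 0.000924, edgeR), and 588, 615 and 654 CPM in EpiLC WT libraries against 483, 439 and 559 CPM in naive WT libraries (0.33, adjusted p = 0.0588, edgeR). The libraries of EpiLC and naive cells did not overlap in either genotype. A call in KO and none in WT does not show a difference between them. The interaction called 0 of 38 members with edgeR and 0 with DESeq2, where 0.381% of all genes passed with edgeR. It had unadjusted p-values under 0.05 for 6 members (Hnrnpa0, Hnrnph1, Srsf10, Hnrnph2, Hnrnpa3 and Hnrnpm), all above 0, where 12.3% of all genes had them, and its smallest adjusted p was 0.202 for Hnrnpa0. Its estimate was above 0 for 27 members and below 0 for 11, with a median of 0.22 against -0.01 over all genes. The 15 members called in neither genotype were Hnrnpa0, Hnrnpa3, Hnrnpc, Hnrnpdl, Hnrnpf, Hnrnph2, Hnrnpu, Srsf2, Srsf4, Srsf5, Srsf6, Srsf9, Srsf11, Mbnl2 and Celf1, and Hnrnpul2 was called in WT alone. Without EpiLC WT replicate 2, Hnrnph2 was also called as lower over the transition in WT (-0.45, adjusted p = 0.0237).

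Some members differed between clones together with the genes around them. For each member the expressed genes within 2 Mb were taken, and each library was compared with the other libraries of its condition. Around Hnrnpll, the median of 23 neighbours deviated by 0.56 (log2) in EpiLC KO replicate 2 and by 0.72 in naive KO replicate 2, and between -0.30 and 0.07 in the other 10 libraries. Hnrnpll itself deviated by 0.47 and 0.31 in these KO replicate 2 libraries. In EpiLCs it was also at 0.19 and 0.15 in KO replicates 1 and 3 and at -0.43 in WT replicate 2. Srsf7 lies in the same stretch of chromosome 17. It deviated by 0.15 in EpiLC KO replicate 2, against 0.18 and 0.11 in EpiLC KO replicates 1 and 3. In naive KO replicate 2 it deviated by 0.19, against -0.05 and -0.15 in naive KO replicates 1 and 3. Around Hnrnpc, a core packaging hnRNP on chromosome 14, 18 neighbours deviated by -0.92 in EpiLC WT replicate 2 and -1.10 in naive WT replicate 2, and Hnrnpc itself by -0.51 and -0.53. Around Mbnl2 the 13 neighbours were higher in KO replicates 1 and 2, by 0.42 to 0.60 in both conditions, while the high Mbnl2 of WT replicate 2 stood beside neighbours at -0.37 in EpiLCs and -0.21 in naive cells. A median deviation of the neighbours of over 0.5 in any library was seen for these 4 members and not for the other 34. Around Hnrnph1, 41 neighbours deviated by -0.08 to 0.17 in all 12 libraries. The 24 neighbours of Hnrnph2 deviated by 0.30, 0.04 and 0.10 in EpiLC KO replicates 1, 2 and 3. In EpiLC WT replicates 1, 2 and 3 they deviated by -0.002, -0.125 and -0.06, below all EpiLC KO values, while the naive groups overlapped. Ptbp2 had only 4 neighbours, at -0.235 to 0.19. A part of neighbours in the calls was not tested.

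**Figure D5:**
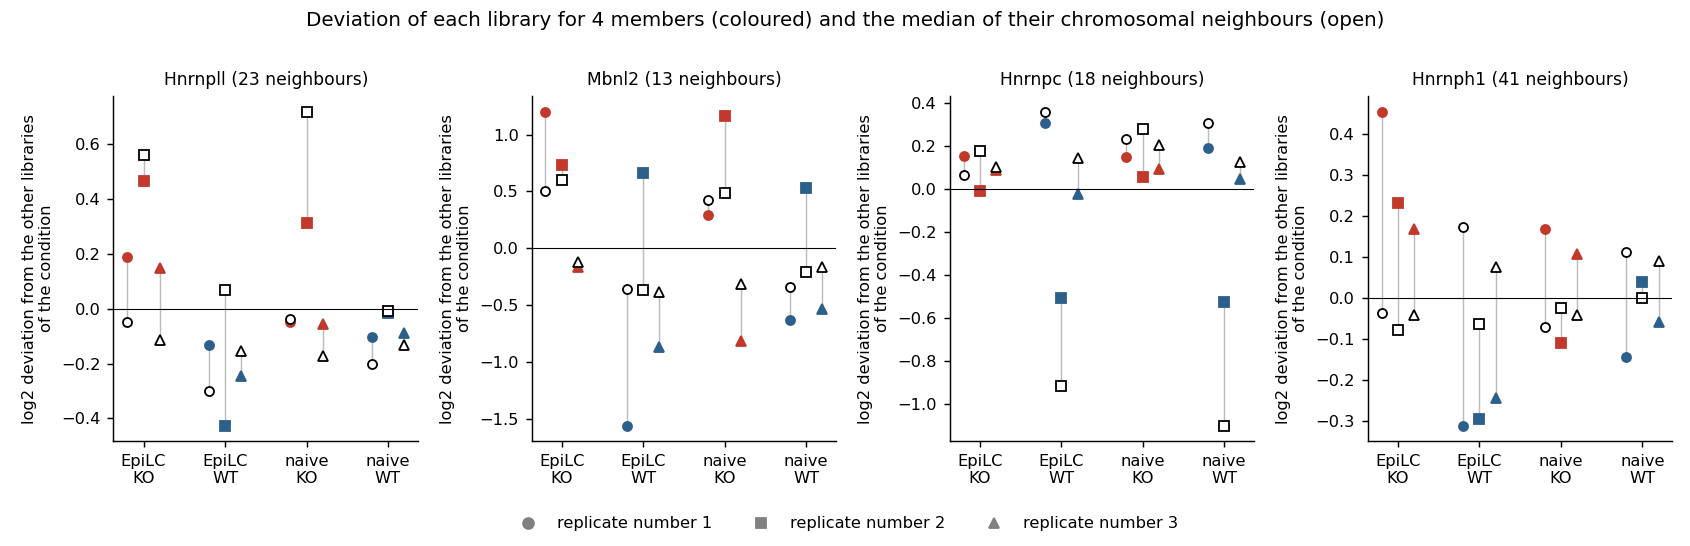
Log2 deviation of each library from the other libraries of its condition (y axis) for 4 members, by group (x axis), with the member in colour and the median of its neighbours within 2 Mb as open markers, marker shape giving the replicate number. For Hnrnpll and Hnrnpc the neighbours stand apart in 1 clone in both conditions, and the member deviates there in the same direction. Hnrnpll also deviates by -0.43 in EpiLC WT replicate 2, where its neighbours are at 0.07. For Hnrnph1 no such clone is seen.

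The annotation sets the SR genes apart in one respect that the choice of members did not use. A transcript of the NMD class is annotated for 9 of 10 SR genes (90.0%), 9 of 19 hnRNP genes (47.4%) and 3 of 9 tissue regulators (33.3%), and for 26.7% of the 14709 protein-coding genes tested and 32.3% of the 4520 with a mean of at least 50 CPM. Counts per gene add such transcripts to the productive ones.

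The wider splicing machinery was read from 7 further lists with 109 genes tested: SR protein kinases, SR-related proteins, 3′ splice site and U2 snRNP, U1 snRNP and 5′ splice site, tri-snRNP, other regulators of alternative splicing, and NMD. In EpiLCs 8 were higher and 8 lower in KO (14.7%), a share near the 15.1% of all genes. In naive cells 3 were higher and 3 lower (5.5%), where 9.23% of all genes passed. Among the kinases that phosphorylate SR proteins, Clk1 was higher in EpiLC KO, with a mean of 93.5 ± 10.2 CPM against 70.5 ± 7.16 CPM in EpiLC WT (SD, n = 3 each; log2 fold change 0.41, adjusted p = 0.0401, edgeR). Clk2 was lower, with 56.6 ± 2.07 CPM in EpiLC KO against 80.8 ± 8.50 CPM in EpiLC WT (-0.51, adjusted p = 0.013, edgeR), and Clk3 was lower by 0.36 (adjusted p = 0.0443, edgeR).

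Of the 15 SR-related proteins, Tra2a, a splicing activator, was higher in EpiLC KO by 0.42 (log2, adjusted p = 0.0134, edgeR). Srrm4, a neuronal microexon factor, was higher by 1.39 (adjusted p = 0.0234, edgeR). It was low, with 9.87, 9.94 and 7.58 CPM in EpiLC KO libraries against 4.46, 1.27 and 4.655 CPM in EpiLC WT libraries. The 1.27 CPM is that of EpiLC WT replicate 2, and no fit without that library is given for Srrm4. Rsrc1 was lower in EpiLC KO by 0.89 (adjusted p = 0.00124, edgeR). Rsrc1 was also lower in naive KO (log2 fold change -0.55, adjusted p = 0.0199, edgeR). The other regulators held the largest changes. Nova2, a neuronal factor, had a mean of 7.01 ± 0.60 CPM in EpiLC KO against 2.24 ± 0.32 CPM in EpiLC WT (SD, n = 3 each; log2 fold change 1.64, adjusted p = 9.8e-05, edgeR), and Celf5, also neuronal, had 31.3 ± 4.68 CPM in EpiLC KO against 17.5 ± 0.86 CPM in EpiLC WT (0.84, adjusted p = 0.00239, edgeR). Both were also higher in naive KO. Rbm10, an X-linked repressor of exons, was lower in EpiLC KO by 0.64 (adjusted p = 0.00448, edgeR) and in naive KO by 0.44 (adjusted p = 0.0376, edgeR).

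Of the snRNP lists, Snrpa1 of the U2 particle was lower in EpiLC KO by 0.565 (log2; adjusted p = 0.00206, edgeR), and Snrpa and Prpf40b of the U1 list by 0.29 and 0.51 (adjusted p = 0.04 and 0.0221, edgeR). Snrpa1 was also lower in naive KO (log2 fold change -0.33, adjusted p = 0.0404, edgeR). None of the 11 tri-snRNP genes passed in EpiLCs or in naive cells. Of the 10 NMD factors Smg9 was lower in EpiLC KO by 0.53 (adjusted p = 0.00749, edgeR). Among the relatives of Pcbp1, Pcbp4 was lower by 0.39 in EpiLC KO (adjusted p = 0.0394, edgeR) and by 0.49 in naive KO (adjusted p = 0.0199, edgeR), while Pcbp3 did not pass in either.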

How the data were processed

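Raw read counts per gene for 12 libraries were deposited by the authors with no normalization, made with featureCounts 2.0.1 on GENCODE vM25, per the file headers. The command names no strand, pair or multi-mapping option. The submitters' processing notes also name fastp, FastQC, STAR and DESeq2, and GRCm38/mm10. Totals per library were 27146744 to 42204511 counts. Genes without a symbol took at most 0.0312% of a library.

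TMM scaling, filterByExpr (minimum count 10, minimum total 15; 18134 genes) and a quasi-likelihood fit of all 12 libraries (8 residual degrees of freedom) used edgeR 4.0.16 in R 4.3.3, with 5 contrasts and Benjamini-Hochberg adjustment over all genes. A gene was called below an adjusted p of 0.05. The SE is the log2 fold change divided by the root of its F statistic, and 95% intervals use the t distribution of the fit. RPKM is CPM per kb of the deposited exon length. Neighbours had a mean of at least 5 CPM, and 0.1 CPM was added before the log2. Near-copies were found with blastn 2.17.0 among GENCODE vM21 transcripts (at least 75 bases at 98% identity), and transcript classes come from the same release. The fit was tested on simulated data.

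Alternatives were DESeq2 1.42.0, its size factors in edgeR, no filter, a filter of 1 CPM in 3 libraries, only the libraries compared, replicate blocks and leaving out each library. Within a genotype, the naive and the EpiLC library with the same number deviated together (correlations across 10583 genes of 0.243 to 0.387, against -0.385 to 0.127 for different numbers), so the number marks a clone there. The replicate block gives KO and WT clones of the same number a shared effect, although these are different clones. The block by clone does not. Members, lists and tests were chosen with earlier results of these data known. Named genes were all members, with the value of every library for those called between genotypes or changed at least 2-fold over the transition, their paralogs, up to 3 genes of each further list with the smallest adjusted p between genotypes, and Pcbp1. Further genes with library values (Srsf7, Hnrnpm, Hnrnpul1, Hnrnpab and Srsf1) were chosen after their values were seen.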

Additional observations from a re-analysis of the deposited data

How the results depend on the processing

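Of the 38 calls of members in the 4 pairwise contrasts, 26 held under every alternative run, and none changed sign. The number of members called in EpiLCs was 4, against 9 with DESeq2 and 7 without a filter, and 2 to 8 when 1 library was left out; the cause was not tested. In naive cells it was 0, against 1 with DESeq2, 1 without a filter and 0 to 1 with 1 library left out. Leaving out 1 library gave 19 to 22 members called over the transition in KO, where 9030 to 10732 of all genes passed. In WT it gave 10 to 14 members, where 8458 to 9986 of all genes passed, and for the interaction 0. The replicate block, which ties KO and WT clones together by number alone, called 6 members in EpiLCs, where 2552 of all genes passed. It lost Ptbp2 and added Esrp1, Esrp2 and Hnrnpm. Over the transition, a block by clone called 24 members in KO and 17 in WT, where 11043 and 10484 of all genes passed. The replicate block also ended the call of Srsf10 in KO (adjusted p = 0.0539). In naive cells, values near 0 changed sign when 1 library was left out: the log2 fold change of Hnrnpll ranged from -0.0138 to 0.15, the lowest without KO replicate 2, and that of Ptbp3 from -0.0833 to 0.0842, below 0 without KO replicate 1 (-0.0169), KO replicate 3 (-0.0189), WT replicate 1 (-0.0833) or WT replicate 2 (-0.0314). The counts over all genes that moved most were those in naive cells, in EpiLCs and for the interaction. In naive cells the count was 1673, against 2516 with DESeq2, 2319 without a filter and 678 to 2164 with 1 library left out. In EpiLCs it was 2734, against 3547 with DESeq2, 3385 without a filter and 1375 to 3117 with 1 library left out. For the interaction it was 69, against 509 with DESeq2, 564 without a filter and 30 with the replicate block. The block by clone gave 228 for the interaction, and leaving out 1 library gave 3 to 149. Having 3 clones a group limits the size of change that can be called, and counts per gene without strand cannot separate overlapping genes or isoforms.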
